A study of Rattus norvegicus with 2 samples.

Results

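The translation factors are the proteins that load the ribosome onto an mRNA, bring aminoacyl-tRNA to it, release the finished chain and receive the chain as it leaves the ribosome. They were examined in 2 samples of YB2/0, a rat myeloma cell line grown in conventional culture without treatment, namely control cells and sorted cells, with 1 array each. The study had put a retroviral cDNA library of human umbilical vein endothelial cells into YB2/0 and sorted the cells that bound IgG of patients with Takayasu arteritis. Its text compares untransfected YB2/0 cells with cloned cells, whereas the label says sorted, and no source used here names the serum or clone behind the sorted sample. Total RNA was hybridised to an Affymetrix array designed on human genes, so rat transcripts are read only as far as they bind human probes. The rule for members uses the gene symbol in the array's annotation and no signal, although it was drawn up with earlier results of these data known, and it took in 173 of 54613 probe sets (Affymetrix controls left out) with 66 gene symbols. Of these probe sets, 3 were shared by EIF3C and its near-identical copy EIF3CL and are counted under EIF3C, which left 65 gene labels. Besides initiation and elongation factors the rule names release factors, NACA, BTF3 and TPT1, and its symbols take in enzymes or partners of factors (EEF1AKMT1, EEF1AKMT2, EEF1AKMT3, EEF2K, EEF2KMT and EIF4ENIF1). It also took in 6 probe sets of an antisense RNA (EIF1B-AS1), a divergent transcript (EIF3J-DT) and a readthrough transcript (EEF1E1-BLOC1S5), none of which was Present on either array.

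In initiation, eIF2 carries the initiator tRNA and is recharged by its exchange factor eIF2B, eIF1 and eIF1A keep the scanning ribosome faithful to the start codon, eIF3 is the large scaffold on the small subunit, and the eIF4 proteins bind and unwind the capped mRNA together with poly(A)-binding protein. eIF5 triggers GTP hydrolysis by eIF2, and eIF5B joins the subunits. In elongation, eEF1A delivers aminoacyl-tRNA and is recharged by eEF1B2, eEF1D and eEF1G, eEF2 moves the ribosome along, and eIF5A relieves stalled peptide bonds. eRF1 (ETF1) and eRF3 (GSPT1) end translation. NACA and BTF3 form the nascent polypeptide-associated complex at the ribosomal exit tunnel, and TPT1 is an abundant growth-associated protein of the cytosol. Plasma cell tumours secrete large amounts of protein and depend on a high capacity for translation.

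The deposited files give each probe set a linear intensity by the MAS5 method, here called its signal, and a call that its transcript is Present, Marginal or Absent. Differences are log2 ratios, sorted over control, of the deposited signals. A probe set was counted as higher if its ratio was 2-fold or more with a Present call in sorted cells. It was counted as lower if the reverse ratio was 2-fold or more with a Present call in control cells. With 1 array per condition no replicate error and no test between the conditions could be had, and all differences are descriptions of these 2 arrays. The arrays cannot tell fewer cells with an RNA from less RNA per cell. Some scale for the values comes from the hybridisation spikes, whose 18 probe sets had log2 ratios with an SD of 0.33, and from 243 genes read by 2 or more probe sets Present on both arrays, which differed within a gene by a pooled SD of 0.52. Among the translation factors that within-gene SD was 0.46, over 11 genes. Signals of different probe sets are not compared as levels, since their probes differ. Of 12 plasma cell markers, PRDM1 and SDC1 were Present in at least 1 sample and the other ones, JCHAIN and CD38 among them, were not, with summed signals of 19726 in control and 17205 in sorted cells. None of 10 endothelial markers was Present on either array, and their summed signals were 8910 and 6016. Both pairs of sums take in probe sets whatever their call. Only 3 of the 25 plasma cell probe sets and none of the 18 endothelial ones were Present on at least 1 array. The sums are therefore not read as levels or changes.

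Many translation factors were detected through the human probes. Of the 173 probe sets, 50 (28.9%) were Present on both arrays, 11 in sorted cells only and 8 in control cells only, while 104 were Present on neither. Over all probe sets 4.68% were Present on both arrays. By gene label, 30 had a probe set Present on both arrays, 10 had one on 1 array only and 25 had none. Detection depended on the group. The nascent chain factors and TPT1 had 9 of 12 probe sets Present on both arrays, eEF1 with its methyltransferases had 9 of 22, the eIF4 group 13 of 34, eIF3 7 of 36, and eIF1 with eIF1A 1 of 20. Those 20 include 2 probe sets of EIF1AD and 3 of the antisense EIF1B-AS1. None of the 5 probe sets of eEF2, its kinase EEF2K and its methyltransferase EEF2KMT was Present. The translocase eEF2 serves every cell, and its 2 probe sets were Absent at 295 and 705 in control cells and at 58.3 and 1158 in sorted cells. An Absent call therefore gives no level here, for eEF2 or for the 21 other labels of factors and their modifiers that were never Present, among them EIF2S3, EIF3A, EIF4A3, EIF4H and EIF6. Of the 50 probe sets Present on both arrays, 42 ended in _s_at, _x_at or _a_at, which marks probes that can bind several transcripts.

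**Figure D1:**
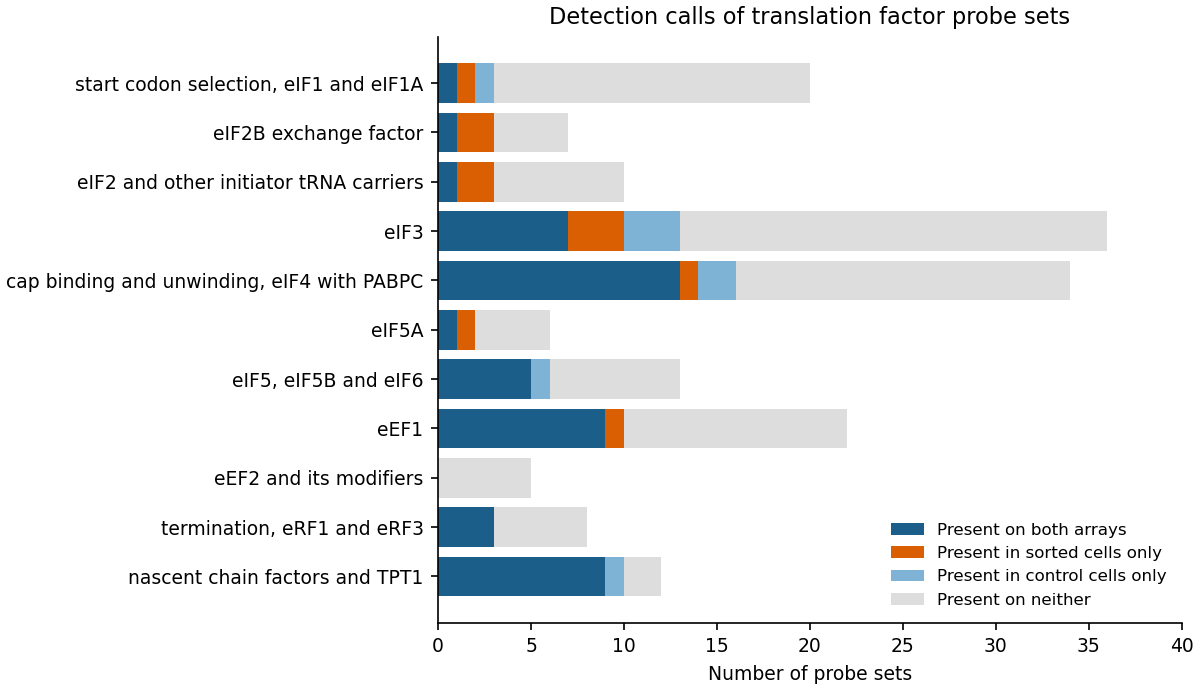
Number of probe sets (horizontal axis) by factor group (vertical axis), coloured by whether MAS5 called them Present on both arrays, in sorted cells only, in control cells only or on neither. The nascent chain factors with TPT1 had 9 of 12 Present on both arrays, and none of the 5 probe sets of eEF2 and its modifiers was Present.

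Most detected factors lay close to equal signals. Of the 50 probe sets Present on both arrays, 45 differed by less than 2-fold, EIF5 was higher at 1 probe set, and NACA and TPT1 were lower at 2 probe sets each. The corresponding background was 6.34% higher and 4.15% lower among all 2556 probe sets Present on both arrays. Counting also those Present on 1 array, 3 of 173 were higher and 5 were lower, against 1.61% and 1.77% of all probe sets. With so few members counted, the shares of higher and lower ones were not read as particular to translation factors. The median log2 ratio of the 50 was 0.27, beside 0.11 over all probe sets Present on both arrays, and 30 of the 50 lay above 0, beside 57.5% of all. The sorted array ran brighter at its upper end, since 67.1% of the 514 probe sets Present on both arrays with a geometric mean signal of 10000 or more, a limit chosen after the values were seen, lay above 0, with a median of 0.24. Of the translation factors 34 were that bright, 24 of them lay above 0, and their median was 0.45. When both arrays were given the same distribution by quantile normalization, the median of the 50 was 0.02 and 26 (52%) lay above 0. Over all 2556 probe sets Present on both arrays that median was 0.04, and 52.7% lay above 0.

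**Figure D2:**
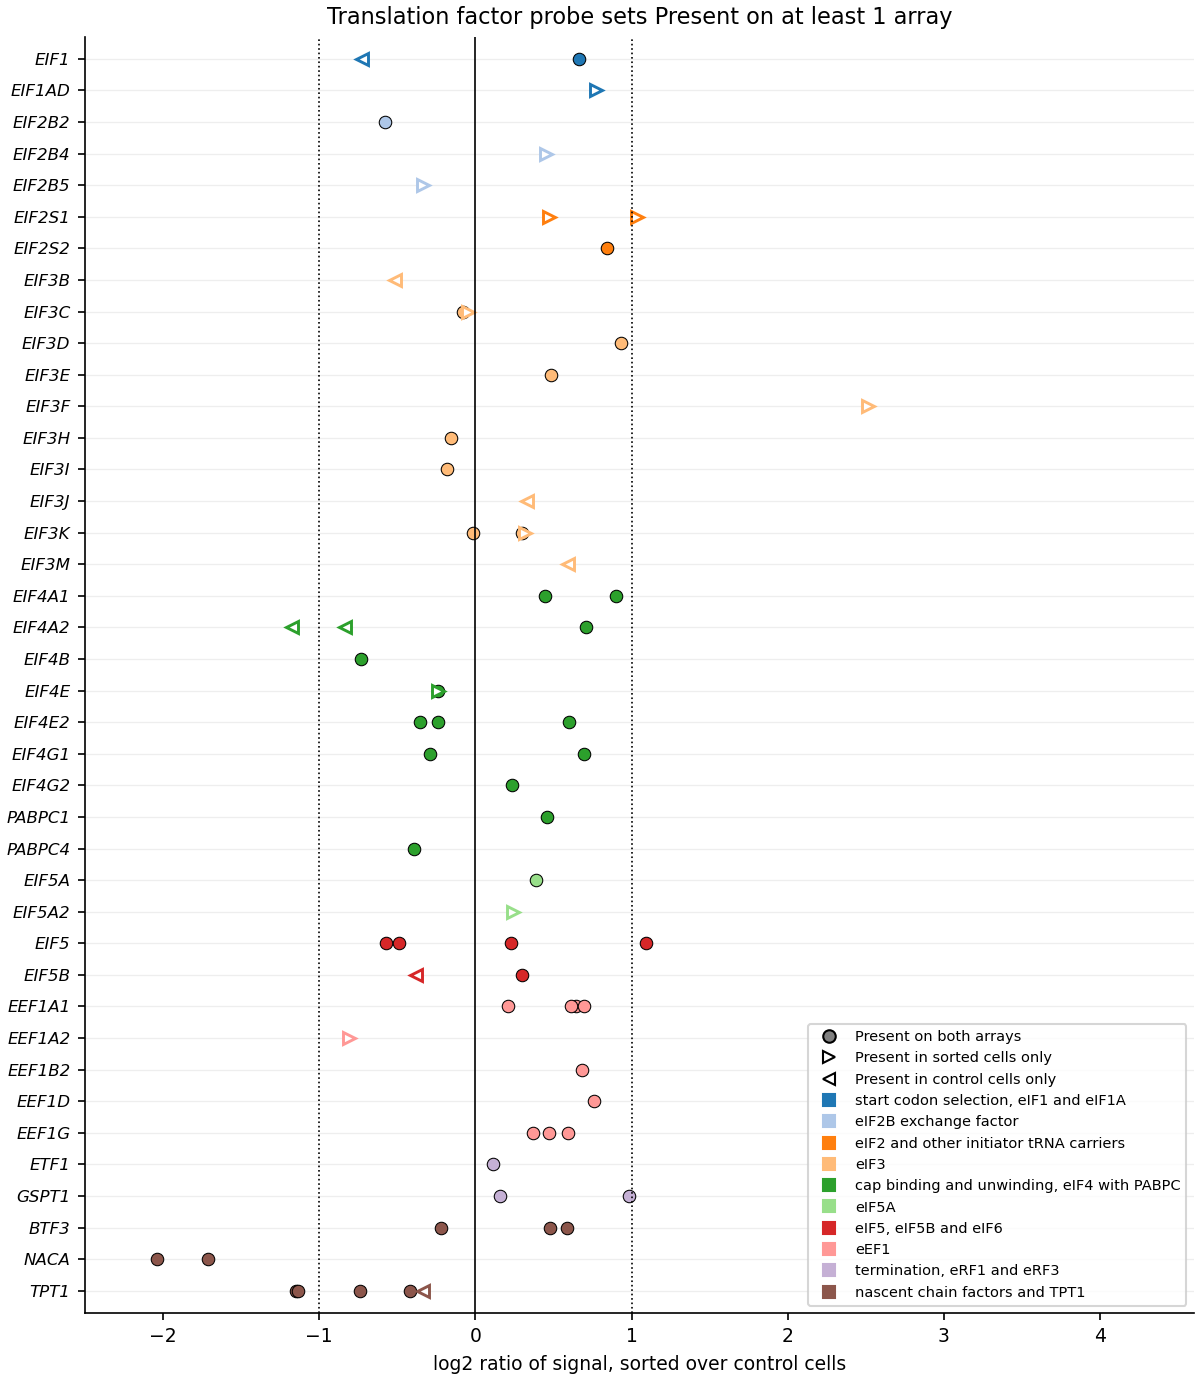
Log2 ratio of sorted over control signal (horizontal axis) for each translation factor probe set Present on at least 1 array, by gene label (vertical axis) and coloured by factor group. Filled circles are Present on both arrays and open triangles on 1 array, with a solid line at 0 and dotted lines at a ratio of 2 in either direction. NACA and TPT1 lie left of the line at every probe set, and EIF3F lies at 2.51.

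Many mRNAs of the translation machinery begin with a run of pyrimidines, the terminal oligopyrimidine tract, through which growth signals set their translation. No probe sequences were used here. The annotated starts of the rat genes (RefSeq, build GRCr8) were therefore read for the members past the 2-fold rule, the eEF1 genes Present on both arrays and BTF3, with 10 bases before and 20 bases from the start, 5′ to 3′, and the longest run of C and T in capitals. Of these 11 genes 10 matched a rat start and are shown, whatever the length of the run, EEF1D being the other one.

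Eef1a1 (chr8:88225050-88225079, minus strand): ttggacgTTCTTTTTCgcaacgggtttgcc
Eef1b2 (chr9:72074081-72074110, plus strand): ggccggtcccggCCCTTTTTCTCCCTCagc
Eef1g (chr1:215289805-215289834, plus strand): CTgcggaatcaccatggcggctggggtaag
Eif2s1 (chr6:103405870-103405899, plus strand): tgggaCCCTagttcgggattcacacataca
Eif3f (chr1:172369052-172369081, plus strand): cccttccgttctagCCTCTCTCTTTCTCgg
Eif4a2 (chr11:91275304-91275333, minus strand): ttcagtcgggcgctgagtgggTTTTCggat
Eif5 (chr6:136410323-136410352, plus strand): ggccgagggtagCTTgagcgcggcggcggc
Btf3 (chr2:31401100-31401129, minus strand): CTCCCTCTagctgccatcttgcgtccccgc
Naca (chr7:1054309-1054338, plus strand): atatgttggtcccgCCCTCTTggtgccccg
Tpt1 (chr15:57566134-57566163, plus strand): CTCCCCCCgagcgccgctccggctgcaccg

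The longest run had 15 bases in Eef1b2, 14 in Eif3f, 9 in Eef1a1, 8 in Btf3 and Tpt1, 7 in Naca, 5 in Eif4a2, 4 in Eif2s1, 3 in Eif5 and 2 in Eef1g. Each gene was read at its most upstream annotated start. In Btf3, Tpt1, Eif2s1 and Eef1g the whole run shown lies before the annotated start, as do 3 bases of the run of Eef1a1. In Btf3, Tpt1 and Eef1g the run begins at the first base of the window, so it may be longer than shown. Of the 66 symbols, 54 matched a rat start, and 11 of those (20.4%) had a run of at least 8 bases, each C or T, in this window of 30 bases on the strand of the gene. The share was 10.6% over 27457 rat genes with 1 window each, and 16.0% over the 25 matched members Present on both arrays. Runs anywhere in the window were counted, bases before the start included, so these are not shares of terminal oligopyrimidine tracts. Among the 11 are the methyltransferases EEF1AKMT1 (a run of 12) and EEF1AKMT2 (8). The window and the length of 8 were chosen after some of these starts had been seen, an annotated start can lie off the true one, and a match is a description only.

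NACA, the alpha subunit of the nascent polypeptide-associated complex, was the member with the largest difference among those Present on both arrays. Its probe set 208635_x_at went from 107533 in control to 32760 in sorted cells, 3.28-fold lower, a log2 ratio of -1.71. A second, 200735_x_at, went from 67713 to 16508, 4.10-fold lower, a log2 ratio of -2.04. Both probe sets pointed the same way and differed from each other by less than the within-gene SD. The remaining one, 222018_at, was Absent on both arrays. The beta subunit BTF3, which pairs with NACA in the complex and whose start sequence is printed beside that of Naca, was not lower by the 2-fold rule. Its signals went from 25782 to 38725 at 208517_x_at (log2 ratio 0.59), from 12984 to 18057 at 211939_x_at (0.48) and from 791 to 678 at 214800_x_at (-0.22). All 3 were Present on both arrays and within 2-fold. With quantile normalization NACA lay between -2.18 and -1.74 and BTF3 between -0.21 and 0.49. Over all scalings run, NACA lay between -2.18 and -1.71 and BTF3 between -0.33 and 0.59. The other scalings could not change the contrast of the 2 genes. Centring shifts both alike, the series' value table holds the same intensities, and the floor on dim signals lies below these signals.

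TPT1 had a smaller signal in sorted cells at each of its 4 probe sets Present on both arrays. Signals went from 41613 to 18810 at 212869_x_at (2.21-fold lower, log2 ratio -1.15) and from 13934 to 6352 at 211943_x_at (2.19-fold lower, -1.13). They went from 15114 to 9076 at 216520_s_at (-0.74) and from 19865 to 14844 at 212284_x_at (-0.42), which are within 2-fold. Another, 214327_x_at, was Present at 3219 in control cells and Absent at 2546 in sorted cells. TPT1 thus lay below 0 throughout, but by 2-fold or more at only some of its probe sets. Together the 6 NACA and TPT1 probe sets Present on both arrays had a median log2 ratio of -1.14. With BTF3 included, the 9 probe sets of the group had a median of -0.74. NACA and TPT1 were pooled after their values were seen, so their median and the count below add no separate evidence. Among bright probe sets a 2-fold lower signal was uncommon, with 3.5% of the 514 lower, and 3 of those 18 were of NACA and TPT1. Of their 6 probe sets 5 are of the _x_at kind, so transcripts of related sequence, including processed pseudogenes, may contribute.

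The eEF1 subunits all lay on the other side of 0. For EEF1A1, the tRNA-delivering GTPase, signals went from 452870 to 707935 at 213477_x_at, from 342525 to 522576 at 204892_x_at, from 299902 to 486102 at 213583_x_at and from 259065 to 299448 at 213614_x_at, with log2 ratios of 0.64, 0.61, 0.70 and 0.21. The exchange subunit EEF1B2 went from 1957 to 3138 (0.68). Its partner EEF1D, the second exchange subunit, went from 13309 to 22497 (0.76). The scaffold subunit EEF1G went from 68290 to 88122, from 65171 to 90298 and from 34590 to 52144, with log2 ratios of 0.37, 0.47 and 0.59. Thus 9 of 9 eEF1 probe sets Present on both arrays lay above 0, between 0.21 and 0.76, and none reached 2-fold. Of all probe sets Present on both arrays 57.5% lay above 0, and 67.1% of those with a mean signal of 10000 or more. With quantile normalization 8 of 9 eEF1 probe sets lay above 0, beside 52.7% of all. Their median was then 0.33 and the lowest -0.04, with EEF1A1 at 0.33 at 213477_x_at, 0.01 at 204892_x_at and 0.27 at 213583_x_at. The eEF1 probe sets are not independent, since 4 read EEF1A1 and 3 read EEF1G (which also name a microRNA within it), and EEF1A1 has many near-identical pseudogene copies. The tissue-restricted isoform EEF1A2 went the other way, from 3185 (Marginal) to 1821 (Present).

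**Figure D3:**
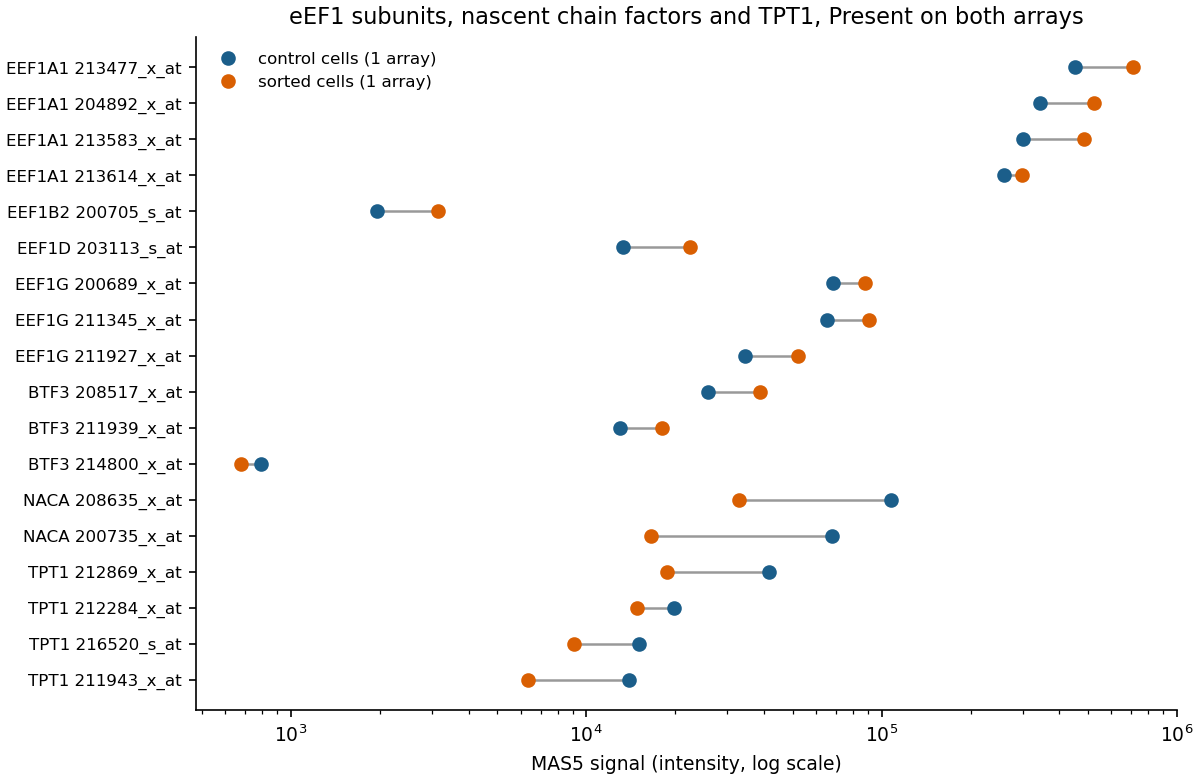
MAS5 signal on a log scale (horizontal axis) of the eEF1, BTF3, NACA and TPT1 probe sets Present on both arrays (vertical axis), with control cells in blue and sorted cells in orange, 1 array each. Sorted signals lie right of control signals at all 9 eEF1 probe sets and left of them at all 6 of NACA and TPT1.

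Of the scaffold eIF3, 13 subunits were named on the array, 6 of which were Present on both arrays, 4 on 1 array only and 3 on neither. EIF3F, a core subunit, was the member with the highest log2 ratio of those counted as higher. Its probe set 200023_s_at was Absent at 643 in control cells (detection p-value 0.095) and Present at 3669 in sorted cells (0.038). By the rule for Absent signals it was 5.70-fold higher. That rule replaces an Absent signal by the lowest Present signal on the same array wherever the latter is larger. A fold by this rule is a ratio of signals and sets no bound on the true fold. The detection p-values lie on either side of the limit for a Present call, and the other 2 EIF3F probe sets, 200865_at and 230479_at, were Absent on both arrays. The other eIF3 subunits Present on both arrays were within 2-fold. EIF3D, which contacts the mRNA cap on some transcripts, went from 9347 to 17811 (0.93). EIF3E went from 86407 to 120904 (0.48). EIF3I went from 80303 to 70837 (-0.18) and EIF3H from 17161 to 15375 (-0.16). EIF3K was at 35082 and 34680 at 210501_x_at (-0.02) and at 30346 and 37240 at 221494_x_at (0.30). Of the probe sets shared by EIF3C and EIF3CL, 210949_s_at was Present on both arrays, at 4815 and 4547 (-0.08). The median over the 7 eIF3 probe sets Present on both arrays was -0.02.

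Among the carriers of the initiator tRNA, the eIF2 beta subunit EIF2S2 went from 42957 to 77145 (0.84) and was Present on both arrays. The alpha subunit EIF2S1, whose phosphorylation shuts down initiation under stress, was 2.05-fold higher at 201143_s_at, from 356 (Absent) to 728 (Present). At 201142_at EIF2S1 went from 335 (Absent) to 464 (Present), a log2 ratio of 0.47. Its other probe set, 201144_s_at, was Absent on both arrays, and 201143_s_at no longer reached 2-fold with centring (0.92). The gamma subunit EIF2S3 was not detected. Of the exchange factor eIF2B, the beta subunit EIF2B2 went from 3073 to 2059 (-0.58). The delta subunit EIF2B4 and the catalytic epsilon subunit EIF2B5 were Present in sorted cells only, although EIF2B5 had a lower signal there (1461) than in control cells (1842). For EIF1, the guardian of start codon choice, 211956_s_at went from 461864 to 731358 (0.66), while 212227_x_at went from 1227 (Present) to 743 (Absent), -0.72. With quantile normalization 211956_s_at was at 0.34.

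In the cap-binding group, 13 probe sets were Present on both arrays and all were within 2-fold, with a median log2 ratio of 0.24. The group gave no stable direction, since its median was -0.29 with quantile normalization. The helicase EIF4A1 went from 43237 to 58889 (0.45) and from 19566 to 36452 (0.90). Its paralog EIF4A2 went from 260776 to 425566 at 200912_s_at (0.71). Another EIF4A2 probe set, 1556350_a_at, was counted as lower, from 252 (Present) to 112 (Absent). By the rule for Absent signals it was 1.58-fold lower, under 2-fold, and with a floor on dim signals its log2 ratio was -0.09. The other one, 1555996_s_at, went from 809 (Present) to 453 (Absent), so the 3 probe sets of this gene differed in sign, and 2 of them also name small RNAs within the gene. The cap-binding protein EIF4E went from 5129 to 4353 at 201437_s_at (-0.24). The scaffold EIF4G1 gave 0.70 at 208624_s_at and -0.29 at 208625_s_at, and EIF4G2, which acts in cap-independent initiation, went from 343082 to 404452 (0.24). EIF4B, a cofactor of the helicase, went from 3812 to 2292 (-0.73). Poly(A)-binding protein PABPC1 went from 387244 to 531020 (0.46) and PABPC4 from 1703 to 1299 (-0.39).

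EIF5 was the clearest case of probe sets of one gene that disagreed. Its probe set 208290_s_at went from 10826 to 23076, 2.13-fold higher (1.09). At 208705_s_at the signal went from 215848 to 144900 (-0.57), at 208706_s_at from 453 to 323 (-0.49) and at 208708_x_at from 2332 to 2726 (0.23). All 4 were Present on both arrays, and the range over them was 1.67 on the log2 scale. With centring 208290_s_at was at 0.98, under 2-fold. Of the 11 genes with 2 or more probe sets Present on both arrays, 4 lay above 0 at each, 2 lay below 0 at each (NACA and TPT1), and 5 had both signs. EIF5B went from 7901 to 9707 (0.30). For EIF5A, 201123_s_at went from 247367 to 323528 (0.39). Its probe set 201122_x_at went from 13892 (Marginal) to 2919 (Absent), a log2 ratio of -2.25, and is not counted because neither call was Present. Among the release factors, ETF1 went from 3814 to 4124 (0.11), and GSPT1 went from 45126 to 50395 at 215438_x_at (0.16) and from 1317 to 2598 at 201912_s_at (0.98), just inside 2-fold.

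**Figure D4:**
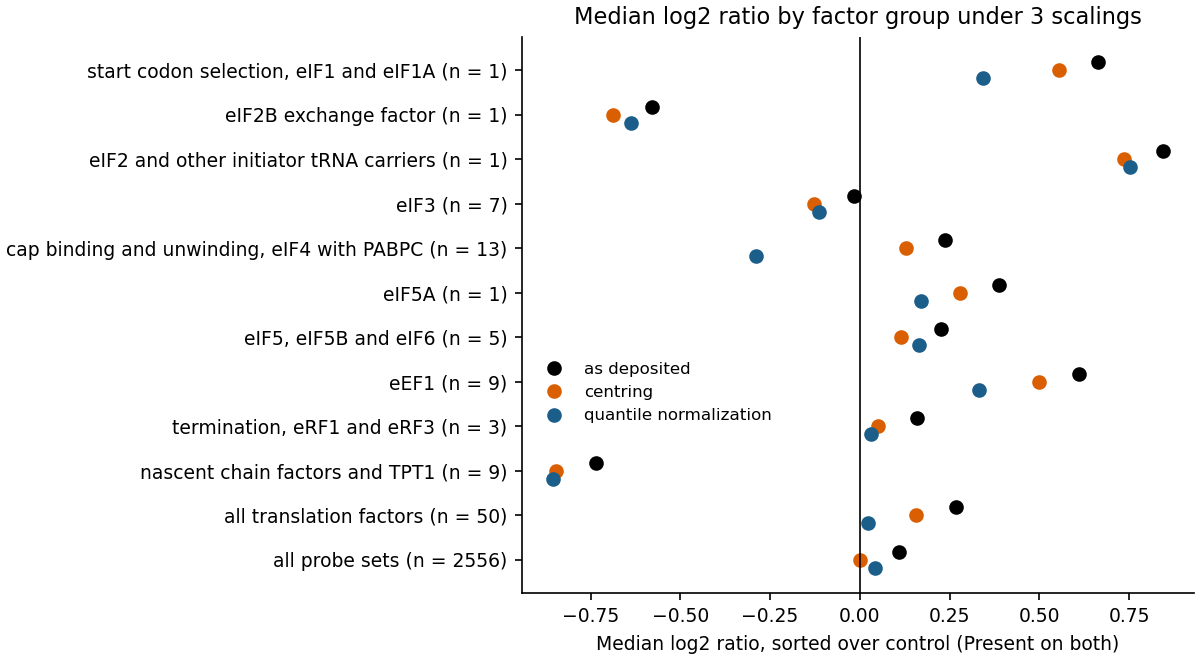
Median log2 ratio of sorted over control signal (horizontal axis) by factor group (vertical axis, with the number of probe sets Present on both arrays) as deposited, with centring on all probe sets Present on both arrays, and with quantile normalization. The eEF1 median stays above 0 and the median of the nascent chain factors and TPT1 below 0 in all 3, while that of the eIF4 group turns from 0.24 to -0.29.

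Genes around the members were taken from lists of regulators. Of the eIF2 kinases and the eIF4E-binding proteins, which the rule leaves out, 3 of 7 genes were Present on at least 1 array. EIF4EBP2, which holds eIF4E away from eIF4G, was 5.04-fold lower at 1570454_at, from 1088 (Present) to 216 (Absent). Its probe set 224653_at had the opposite sign, from 1784 (Absent) to 2676 (Present). Of 36 other regulators 12 were Present on at least 1 array, and 3 of their 95 probe sets were higher and 2 were lower, near the shares of 1.61% and 1.77% over all probe sets. DDX3X, a helicase that helps scanning through structured leaders, went from 48561 to 153946 at 212515_s_at (3.17-fold higher) and from 38731 to 82209 at 201210_at (2.12-fold higher), and from 12161 to 23711 at 212514_x_at (0.96). Its 3 detected probe sets had the same sign, but 201210_at was under 2-fold with centring (0.98) and with quantile normalization (0.99). MTOR, the kinase that releases eIF4E, went from 979 (Present) to 50.1 (Absent) at 202288_at. That is 6.15-fold lower by the rule for Absent signals, and the other MTOR probe set, 215381_at, was Absent on both arrays. PDCD4, an inhibitor of eIF4A, was counted in both directions, from 292 (Absent) to 606 (Present) at 202730_s_at (0.94 on the log2 scale with centring, under 2-fold) and from 885 (Present) to 427 (Absent) at 212593_s_at.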

How the data were processed

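The authors deposited for each array one MAS5 intensity per probe set with a call and its p-value. Per the labels, total RNA was labelled with biotin and processed with Affymetrix Expression Console (version not given in the sources used here). Both arrays had a mean signal of 500.0 without the 2% at either end. The largest deposited p-value of a Present call was 0.049. The series also has a table of the same intensities. No scanner intensities were used.

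Members were found by symbol in the array's annotation. Of their probe sets 16 name several genes. The members and lists were chosen with earlier results of these data known. The text gives in full the members past 2-fold, the 3 brightest detected probe sets of each group, the 5 brightest of all and genes whose detected probe sets disagreed in sign by over 1 on the log2 scale. It also gives genes of the related lists past 2-fold, and other genes for their role, chosen after their values were seen. Folds against an Absent signal used that signal or, where larger, the lowest Present signal, 148 in control and 159 in sorted cells. Alternatives were quantile normalization, centring, the value table, a floor on dim signals, and other probe set, fold and detection rules. The counting rule was run on simulated data, with shifts well past 2-fold planted at probe sets Present on both arrays. That run does not cover ratios near 2-fold or probe sets Absent on 1 array. Python 3.11.15, numpy 2.4.6, pandas 2.3.3, scipy 1.17.1 and matplotlib 3.10.9 were used. Having 1 array each limits precision, and array run and condition cannot be told apart.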

Additional observations from a re-analysis of the deposited data

How the results depend on the processing

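No paired analysis was possible because each condition has 1 array, and no array could be left out. Shifts of a log2 ratio over 0.33, the spread (SD) among hybridisation spikes, were taken as changes. The 3 members counted as higher became 1 with centring, 1 with a 4-fold rule, 0 with gene-specific probe sets and 28 with no detection call required. The 5 lower became 0 with gene-specific probe sets, 1 with a 4-fold rule, 1 with an Absent call required on the dimmer array and 33 with no detection call. Only 8 of the 50 probe sets Present on both arrays are gene-specific, and over them the median of 0.27 turned to -0.023. With no detection call required, Absent signals enter the counts. It kept its sign in the other alternatives run, between 0.02 and 0.27. Centring shifted all log2 ratios by 0.11. Of 31 named probe sets 5 changed with quantile normalization and 1 with the floor. None changed with centring or the value table, and none could, since centring shifts by less than the limit and the table holds the same intensities. Just under the limit with quantile normalization were EIF1 at 211956_s_at (0.66 to 0.34) and EEF1A1 at 213477_x_at (0.64 to 0.33). The 5 that changed with quantile normalization all moved down. EIF4G2 went from 0.24 to -0.29, PABPC1 from 0.46 to 0 and EIF4A2 at 200912_s_at from 0.71 to 0.35. EEF1A1 went from 0.61 to 0.01 at 204892_x_at and from 0.70 to 0.27 at 213583_x_at. NACA and TPT1 stayed lower by 2-fold or more at the same 4 probe sets under quantile normalization. Centring, the value table and the floor could not have removed these calls. The value table holds the same intensities, the floor (240 in control and 237 in sorted cells) lies below these signals, and centring lowers every ratio. A 4-fold rule left 1 of these 4 probe sets, NACA at 200735_x_at.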

Other observations

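The aminoacyl-tRNA synthetases, which charge the tRNAs that eEF1A delivers, were Present on at least 1 array at 8 of 41 probe sets (19.5%), beside 12.5% of all probe sets, and for 7 of 20 genes, the scaffold included. The 2-fold rule counted 3 of the 41 as higher and 0 as lower, beside 1.61% and 1.77% of all probe sets, each of the 3 from an Absent signal in control cells. LARS1, for leucine, went from 131 to 1294 at 222427_s_at, 8.73-fold higher by the rule for Absent signals. Its other 3 probe sets were Absent on both arrays. MARS1, for methionine, went from 1179 to 4984 at 201475_x_at, 4.23-fold higher, with its other 2 probe sets Absent on both arrays. GARS1, for glycine, went from 2547 to 5146 at its single probe set, 2.02-fold higher. It was under 2-fold with centring (0.90) and with quantile normalization (0.95 on the log2 scale). KARS1, for lysine, went from 5047 to 5806 at 200079_s_at (0.20), the scaffold AIMP1 from 3118 to 4582 at 202542_s_at (0.56) and FARSB, for phenylalanine, from 373 to 618 at 223036_at (0.73), each Present on both arrays and within 2-fold. The other detected probe sets lay below 0. FARSB went from 2491 (Absent) to 2262 (Present) at 223035_s_at (-0.14), and EPRS1 from 2118 (Absent) to 1248 (Present) at 200842_s_at (-0.76).

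Among the partners of poly(A)-binding protein, the stimulator PAIP1 was Present on at least 1 array at all 5 of its probe sets and within 2-fold at each, with log2 ratios from -0.53 to 0.90. PAIP2, which inhibits it, went from 90339 to 83624 at 222983_s_at (-0.11), and its other 2 probe sets were Present on neither array. These genes were named after their values were seen.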
